A study of Mus musculus with 6 samples.

Results

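The genes described here make, interconvert, burn or carry ketone bodies. The 5 members, Slc16a1, Oxct1, Acat1, Bdh1 and Bdh2, were chosen by symbol for their roles in this pathway, and all 5 were found among the 23094 rows of the deposited table that carry a gene name. Each stood on 1 row, and the row of Oxct1 also names A630020A06, so its value may hold reads of both. RNA was sequenced from fetal liver erythroid cells of C57BL/6 mice, sorted as CD71+Ter119+ on embryonic day 13.5. CD71 takes up iron-loaded transferrin and Ter119 marks the red cell lineage. The groups were Tfam WT (n = 3 libraries) and Tfam KO (n = 3), where Tfam encodes a factor that packages and transcribes mitochondrial DNA. No allele, Cre driver, litter or sex is named in the labels, nor whether each library came from its own embryo, so the p-values speak only of the spread among these libraries, which may be technical.

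Ketone bodies are acetoacetate and beta-hydroxybutyrate, small acids that the liver makes from acetyl-CoA in its mitochondria and that other tissues take up and burn. In synthesis Bdh1 reduces acetoacetate to beta-hydroxybutyrate. In use Bdh1 runs the other way, Oxct1 moves CoA from succinyl-CoA onto acetoacetate, and the thiolase Acat1 splits the product into acetyl-CoA. Each of these steps takes place in the mitochondrion, and beta-hydroxybutyrate is also known as an inhibitor of class I histone deacetylases. Maturing red cells lose their mitochondria and depend on Slc16a1 to export lactate, a cargo of the same carrier.

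Values are RPKM, read numbers divided by transcript length and by the size of the library, so levels can be compared between genes. The values of WT replicate 3 added up to 815524 RPKM, against 423263 to 535933 in the other 5 libraries, and this library also differed by transcript length. On the log2(RPKM + 1) scale the median gene among the shortest 20% of transcripts lay 0.67 above its mean over the 6 libraries there, and the median gene among the longest 20% lay at -0.53. Most log2 differences below are therefore given with and without that library. Tfam itself was at 7.22, 8.44 and 5.72 RPKM in WT replicates 1, 2 and 3 and at 5.92, 7.22 and 6.25 in the KO replicates. These ranges overlap (p = 0.700 by an exact two-sided permutation test that cannot go below 0.1), so the level of Tfam does not check the labels, and gene-level values do not show whether part of the gene is deleted. Of 12 erythroid marker symbols 11 had a row, each with a mean above 1 RPKM. The symbol without a row, Epb42, is another name of Epb4.2, which had one. The summed level of these markers was 10815 to 15544 RPKM in WT and 10684 to 14282 in KO.

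The 5 genes spanned the range from among the more abundant transcripts of these cells to values listed at 0. Slc16a1 stood far above the others, at a mean of 113 ± 19.7 RPKM over all libraries (SD, n = 6), higher than 92.1% of the 8302 rows with a mean of at least 1 RPKM. Oxct1 followed at 4.0 ± 0.586 and Acat1 at 3.57 ± 0.413, higher than 25.7% and 23.1% of those rows. These neighbours were not separated beyond their spread, although Oxct1 was above Acat1 in 5 of 6 libraries. Bdh1 came next at 0.657 ± 0.243 RPKM, and Bdh2 was last. Within a library Slc16a1 was 19.0 to 38.3 times the level of Oxct1, and Oxct1 was 4.28 to 10.4 times that of Bdh1. The 2 dehydrogenases, Bdh1 and Bdh2, were thus the members with a mean below 1 RPKM.

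**Figure D1:**
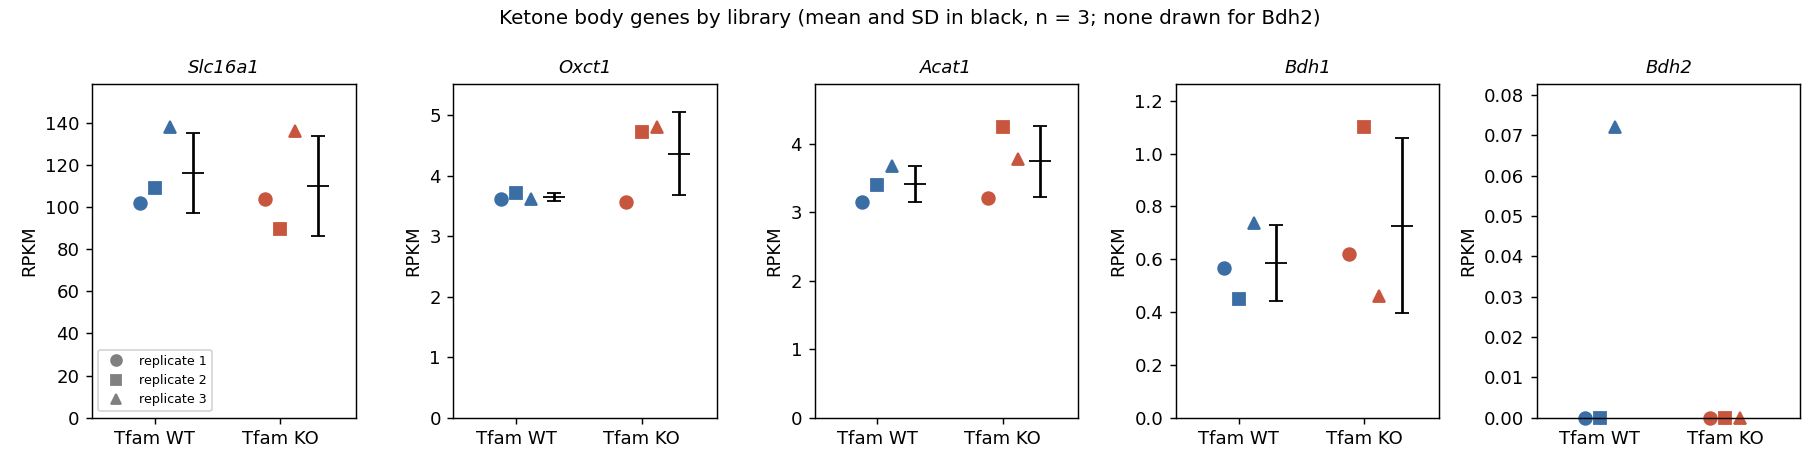
Level of each ketone body gene in RPKM (linear axes from 0, a separate scale per gene) in the libraries labelled Tfam WT (blue) and Tfam KO (red), with replicate numbers as symbols and the mean and SD in black (none for Bdh2, listed at 0 in 5 libraries). The groups overlap in every panel, and the spread of Oxct1 and Acat1 is wider in KO than in WT.

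No member passed the test of KO against WT. With limma on log2(RPKM + 1), fitted over the 8302 rows and adjusted by the Benjamini-Hochberg method, 0 of the 3 members with a mean of at least 1 RPKM passed an adjusted p of 0.05. The same test called 0% of all 8302 rows (0 rows, with 100 rows, or 1.20%, at an unadjusted p under 0.05). For no member did every KO library lie on one side of every WT library, against 4.54% of the 8302 rows (2.18% higher and 2.36% lower in KO). Without WT replicate 3 the test again called 0 of the 3, against 0.0120% of 8301 rows. Fitted values in KO were higher for 2 of the 3 tested members and lower for 1, with a median log2 difference of 0.10. Over all rows 3900 of 8302 were higher, with a median of -0.019. Without WT replicate 3 they were higher for 3 members and lower for 0, with a median of 0.15. Over all rows 3731 of 8301 were then higher, with a median of -0.013. A shortage of called genes at this size does not show that levels were equal. The intervals below give the changes the data leave possible on the log2(RPKM + 1) scale. That scale understates changes of low genes, here Oxct1, Acat1 and above all Bdh1.

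Slc16a1 encodes the proton-coupled carrier that moves lactate, pyruvate and ketone bodies across the plasma membrane. It was at 102, 109 and 138 RPKM in WT replicates 1, 2 and 3 and at 104, 89.8 and 136 in the KO replicates. The third replicate was the highest in both groups, and KO replicate 2 was the lowest library. The means were 116 ± 19.5 RPKM in WT and 110.0 ± 23.6 in KO (SD, n = 3), and the log2 difference of KO minus WT was -0.088 (SE 0.23, 95% interval -0.62 to 0.45, limma adjusted p = 0.921, and 0.653 or more under every alternative setting). Without WT replicate 3 the difference was 0.043 (95% interval -0.42 to 0.50). The sign also turned without KO replicate 2 (0.047) and after quantile normalization (0.083), so these data give no direction for Slc16a1. In WT replicate 3 Slc16a1 lay 0.31 above its own mean on the log2 scale, whereas the median gene of its length class (20% of rows) was at -0.21 there.

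Oxct1 encodes the CoA transferase that commits acetoacetate to oxidation. WT replicates 1, 2 and 3 held 3.61, 3.72 and 3.61 RPKM of it. It was at 3.57, 4.72 and 4.80 RPKM in KO replicates 1, 2 and 3. The WT libraries were almost level, KO replicates 2 and 3 stood above all of them, and KO replicate 1 was the lowest library of all, so the groups overlapped. The means were 3.65 ± 0.0647 RPKM in WT and 4.36 ± 0.688 in KO (SD, n = 3), with a log2 difference of 0.20 (SE 0.15, 95% interval -0.16 to 0.55, limma adjusted p = 0.909, and 0.655 or more under every alternative). An exact two-sided permutation test gave p = 0.400, and 2 of the 3 numbered pairs were higher in KO. Leaving out WT replicate 3 gave 0.19, while leaving out KO replicate 1 gave 0.31 (limma adjusted p = 1.0).

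Acat1 encodes the mitochondrial acetoacetyl-CoA thiolase, which serves ketone synthesis, ketone use and the breakdown of isoleucine. Its levels were 3.15, 3.39 and 3.68 RPKM in the WT libraries. They were 3.20, 4.24 and 3.78 RPKM in the KO libraries. KO replicates 2 and 3 were again the highest, KO replicate 1 lay among the WT values, and each KO library was above the WT library with its number. The means were 3.41 ± 0.266 RPKM in WT and 3.74 ± 0.520 in KO (SD, n = 3), with a log2 difference of 0.10 (SE 0.15, 95% interval -0.25 to 0.45, limma adjusted p = 0.909, and 0.782 or more under every alternative). Without WT replicate 3 it was 0.15 (95% interval -0.18 to 0.47), without WT replicate 1 it was 0.060, without KO replicate 1 it was 0.19 and without KO replicate 2 it was 0.027.

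Bdh1, the dehydrogenase of the inner mitochondrial membrane that interconverts acetoacetate and beta-hydroxybutyrate, was below 1 RPKM in 5 of 6 libraries. It was at 0.568, 0.451 and 0.736 RPKM in WT and at 0.621, 1.10 and 0.461 in KO. KO replicate 2 was the highest library, and the other KO libraries lay within the WT range. The means were 0.585 ± 0.143 and 0.728 ± 0.334 RPKM (SD, n = 3; exact two-sided permutation test, p = 0.60). Bdh1 did not reach the level needed for the main test, and a fit without that filter gave a log2 difference of 0.11 (SE 0.15, 95% interval -0.26 to 0.48, limma adjusted p = 0.931). The difference was 0.18 without WT replicate 3 and -0.038 without KO replicate 2, so its sign rested on KO replicate 2. Adding 0.1 in place of 1 before the log, with all 6 libraries, gave a difference of 0.22, so its size depends on the scale.

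The sorted cells also held transcripts of hepatocytes, which express Bdh1 in the liver. All 11 hepatocyte markers looked for had a row and none was at 0 throughout. Their summed level was 88.2, 57.4 and 42.6 RPKM in WT and 83.0, 140.2 and 15.6 in KO. KO replicate 2 was the highest library for 10 of the 11 markers, as it was for Bdh1 and Acat1, and KO replicate 3 was the lowest for 9. Bdh1 was instead lowest in WT replicate 2 (0.451 RPKM). Summed megakaryocyte markers were also highest in KO replicate 2 (87.6 RPKM) and lowest in KO replicate 3 (26.4). Those of macrophages and neutrophils were highest in WT replicate 3 (33.2 and 173). Alb was at 39.1 RPKM in KO replicate 2 and 4.09 in KO replicate 3. The part of hepatocyte transcripts in the level of Bdh1 was not tested, and in bulk RNA fewer cells of a type and less RNA per cell cannot be told apart.

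**Figure D2:**
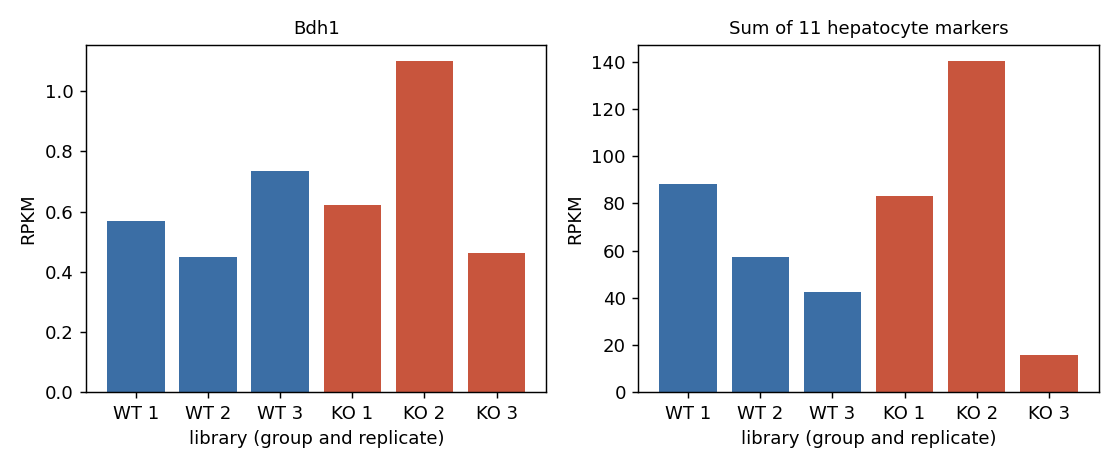
Level of Bdh1 (left) and summed level of 11 hepatocyte markers (right) in each library, in RPKM on linear axes from 0, with WT libraries in blue and KO libraries in red. KO replicate 2 is the highest in both panels, at 1.10 and 140.2 RPKM, while WT replicate 3 stands next to it for Bdh1 (0.736) but is low for the markers (42.6).

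Bdh2, a cytosolic dehydrogenase of the same name that has also been linked to the synthesis of a mammalian siderophore, was listed at 0 in 5 libraries. WT replicate 3 held the remaining value, 0.0720 RPKM. A listed 0 can be a failed estimate in this table, since Hmgcs1, the cytosolic HMG-CoA synthase of sterol synthesis that dividing cells use, was also listed at 0 in all 6 libraries. No fold change is given for Bdh2. The iron genes fixed beside it had 9 of 10 members tested and 0 past the threshold, with a median log2 difference of 0.015, or -0.012 without WT replicate 3. Of these, the ferritin chains Fth1 and Ftl1 had means over the 6 libraries of 7175 and 10443 RPKM, and the mitochondrial iron importer Slc25a37 one of 2867.

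The remaining enzymes of ketone synthesis and use were read from a list of 9 genes, 4 of which had a mean of at least 1 RPKM. Of the 4, 0 passed the limma test in either direction, the fitted value was higher in KO for 1 and lower for 3, and the median log2 difference was -0.28, or -0.040 without WT replicate 3.

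The cytosolic thiolase Acat2 was at 7.34 ± 1.57 RPKM in WT and 6.07 ± 0.798 in KO, and its mouse copy Acat3 at 23.4 ± 8.91 and 17.4 ± 1.27 (SD, n = 3). Reads may have been split between these similar genes, so both values are uncertain. Their log2 differences were -0.23 and -0.35 with all libraries and -0.087 and -0.065 without WT replicate 3. Aacs, which activates acetoacetate in the cytosol for lipid synthesis, was at 1.31 ± 0.220 RPKM in WT and 1.43 ± 0.103 in KO. Its log2 difference was 0.074, or -0.0033 without WT replicate 3. Further genes of the list were below 1 RPKM. Hmgcll1 was at most 0.0813, the testis form Oxct2a was listed at 0 in all libraries but KO replicate 1 (0.0220), and Oxct2b and Hmgcs1 were listed at 0 throughout.

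**Figure D3:**
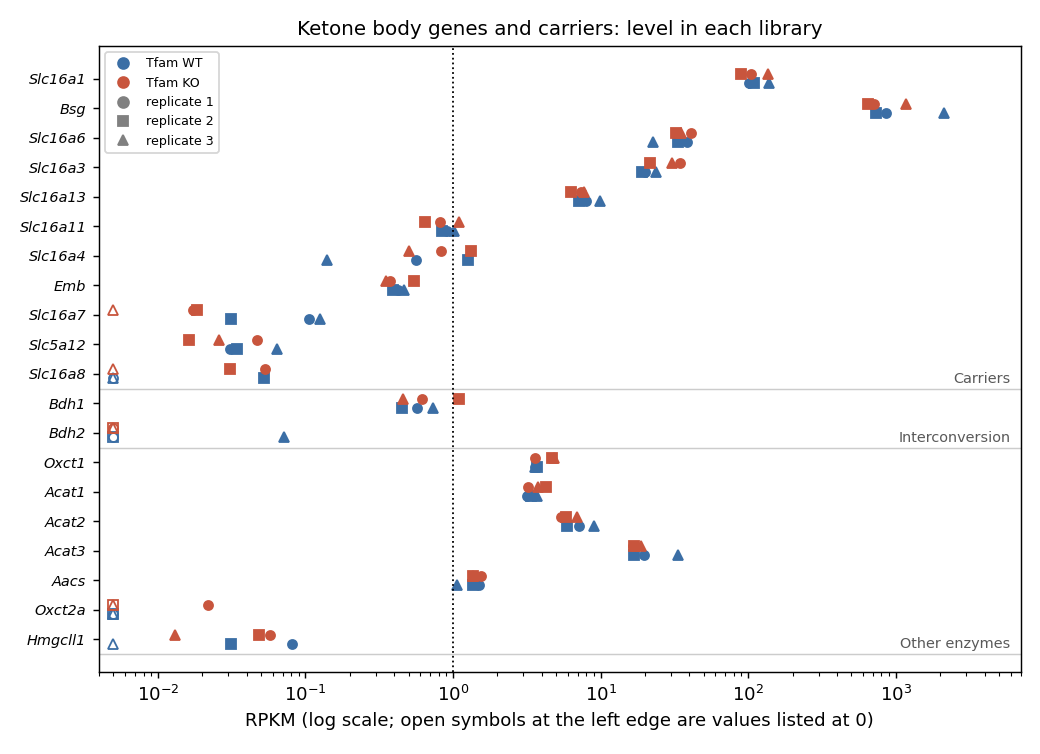
Level of ketone body enzymes, carriers and carrier partners in every library, in RPKM on a log axis, with WT in blue, KO in red and replicate numbers as symbols. Open symbols at the left edge are values listed at 0, and the dotted line marks 1 RPKM, with Bdh2 and all but 1 value of Bdh1 to its left and Slc16a1, Oxct1 and Acat1 to its right.

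Other carriers of monocarboxylates, from the family of Slc16a1 and the sodium-coupled SLC5 family, and protein partners of Slc16a1 and Slc16a3 made up a list of 11 genes. The 4 with a mean of at least 1 RPKM were Slc16a3, Slc16a6, Slc16a13 and Bsg. Of these 0 passed the limma test, with fitted values higher in KO for 2 and lower for 2. Slc16a3, the carrier best known for lactate export from glycolytic cells, was at 20.1, 19.1 and 23.6 RPKM in WT and 34.4, 21.5 and 30.6 in KO. KO replicates 1 and 3 were above every WT library and KO replicate 2 lay below WT replicate 3, so the groups overlapped. The log2 difference was 0.42 (SE 0.21, 95% interval -0.066 to 0.91, limma adjusted p = 0.909) and 0.51 without WT replicate 3 (95% interval 0.051 to 0.97, limma adjusted p = 1.0). With the replicate block the difference was again 0.42 (95% interval 0.021 to 0.83, unadjusted p = 0.0424, limma adjusted p = 0.715), and 3 of 3 numbered pairs were higher in KO. With the block 324 of 8302 rows had an unadjusted limma p under 0.05. No label backs the pairing, which was taken from these same data. Without WT replicate 3 all KO values of Slc16a3 were above both WT values, as in 5.42% of all rows.

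Bsg, the chaperone that brings Slc16a1 and Slc16a3 to the membrane, was at 854, 730.1 and 2135 RPKM in WT and 715, 653 and 1181 in KO. The log2 difference of -0.42 (95% interval -1.55 to 0.70) became 0.055 without WT replicate 3. In that library this short transcript lay 1.17 above its own mean, and the median gene of its length class lay at 0.67. Slc16a6, a carrier reported to export ketone bodies from the liver in zebrafish, was at 31.6 ± 8.08 RPKM in WT and 36.3 ± 4.56 in KO (SD, n = 3). Slc16a13 was at 8.32 ± 1.40 and 7.13 ± 0.735. The log2 differences were 0.22 for Slc16a6 and -0.19 for Slc16a13, or 0.0038 and -0.073 without WT replicate 3. The other partner, Emb, and the carriers Slc16a4, Slc16a7, Slc16a8, Slc16a11 and Slc5a12 had means below 1 RPKM, and Slc5a8 was listed at 0 in all libraries. Among these, Slc16a7 was at 0.105, 0.0312 and 0.125 RPKM in WT and 0.0172, 0.0184 and 0 in KO, levels too low for the main test. All its KO values lay below all WT values, as in 2.36% of the rows with a mean of at least 1 RPKM. A fit without the filter gave a log2 difference of -0.10 (limma adjusted p = 0.931).

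The ratio of Slc16a1 to Slc16a3 within a library does not depend on the library total, and it was examined after Slc16a3 was seen to be higher in KO libraries, so it restates those values and is given with no test. It was 5.05, 5.71 and 5.86 in WT replicates 1, 2 and 3 and 3.03, 4.18 and 4.44 in the KO replicates. All KO ratios were below all WT ratios, with means of 3.88 ± 0.749 and 5.54 ± 0.428 (SD, n = 3). Both transcripts fell in the same length class of 20% of rows. In WT replicate 3, however, Slc16a1 deviated from its own mean by 0.31 and Slc16a3 by -0.039 on the log2 scale. Leaving out a library cannot make separate groups overlap, so that check is not used here.

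**Figure D4:**
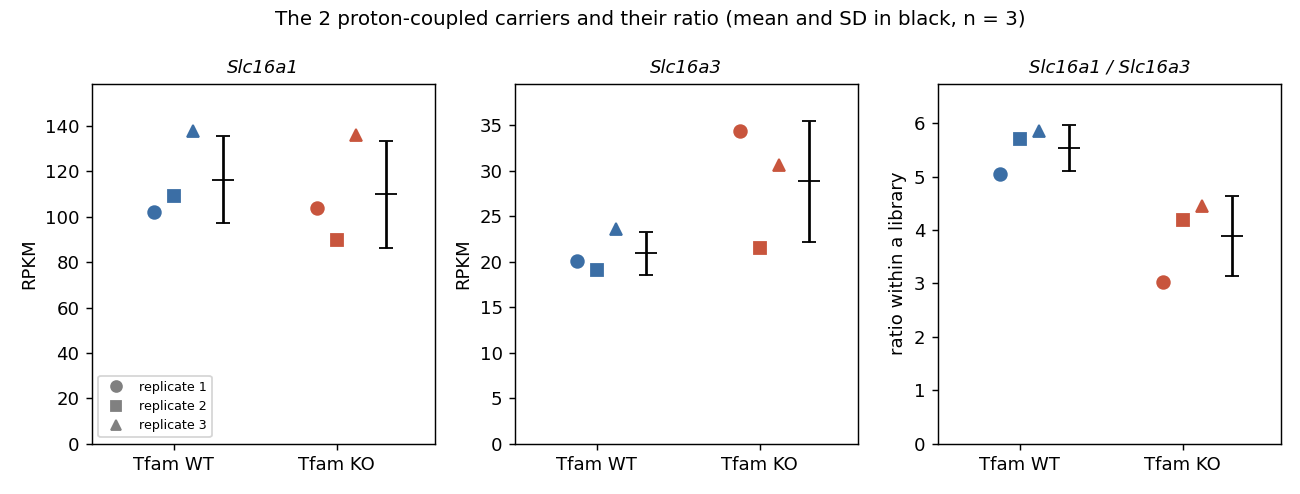
Level of Slc16a1 and Slc16a3 in RPKM and their ratio within each library (linear axes from 0), with WT in blue, KO in red, replicate numbers as symbols and the mean and SD in black. The levels overlap between groups, while the ratio is 5.05 to 5.86 in WT and 3.03 to 4.44 in KO.

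Pathways that supply or drain the acetyl-CoA and acetoacetyl-CoA of ketone bodies held 0 genes past the threshold, and most but not all of their listed genes had a mean of at least 1 RPKM. In fatty acid oxidation 14 of 15 listed genes were tested, 5 with a higher and 9 with a lower fitted value in KO (median log2 difference -0.10, or 0.0085 without WT replicate 3). Its most abundant members were Acadvl, Hadha and Hadhb, the long-chain dehydrogenase and the trifunctional protein subunits, at means of 50.0, 47.3 and 45.1 RPKM over the 6 libraries. Acadm, the medium-chain dehydrogenase, chosen after its values were seen, was the 1 gene with a mean of at least 1 RPKM in any of the pathway lists whose groups did not overlap. It was at 3.22, 3.09 and 3.0 RPKM in WT and 3.74, 4.12 and 3.42 in KO, with a log2 difference of 0.21 (95% interval -0.10 to 0.53, limma adjusted p = 0.909). Without WT replicate 3 the difference was 0.19. Higher values in KO without overlap were found in 2.18% of all rows.

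Leucine and isoleucine breakdown, which ends in acetoacetate and acetyl-CoA, had 7 of 12 genes tested, 2 with a higher and 5 with a lower fitted value (median -0.12, or 0.015 without WT replicate 3). Dld, Auh and Hsd17b10 led this list at means of 41.2, 38.4 and 28.5 RPKM. The 5 genes with a mean below 1 RPKM, named after their values were seen, were Bcat1, Bckdhb, Dbt, Mccc1 and Mccc2. Citrate synthesis and acetyl-CoA use had 10 of 10 tested, 7 higher and 3 lower (median 0.033, or 0.014 without WT replicate 3). Citrate synthase Cs had a mean of 116 RPKM and the pyruvate dehydrogenase subunit Pdhb one of 67.3. Of the genes that control ketone synthesis in the liver, 1 of 10 was tested, the mitochondrial deacetylase Sirt3 (5.25 ± 1.91 RPKM in WT and 4.41 ± 0.760 in KO). The log2 difference of Sirt3 was -0.18, but 0.062 without WT replicate 3. The regulators Ppara and Fgf21 were among the 9 with a mean below 1 RPKM. Over all the pathway lists together, 52 of 83 genes were tested, with 23 higher and 29 lower fitted values and 0 with an unadjusted p under 0.05, against 1.20% of all rows. At that unadjusted threshold the count was 2 without WT replicate 3 (Slc16a3 and Echs1), 1 with the replicate block and 4 with the block and the length trend removed, and 0 passed after adjustment in each. In the same settings the counts over all rows were 183 of 8301, 324 of 8302 and 598 of 8266.

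The class I histone deacetylases that beta-hydroxybutyrate is reported to inhibit were also expressed. Hdac1 was at 72.6 ± 14.3 RPKM in WT and 62.6 ± 11.9 in KO, Hdac2 at 24.8 ± 1.44 and 23.5 ± 2.30, and Hdac3 at 16.1 ± 1.46 and 15.2 ± 0.796 (SD, n = 3). Of these 3, 0 passed, and their log2 differences of KO minus WT were -0.21, -0.076 and -0.070, or -0.059, -0.050 and -0.0013 without WT replicate 3. Hdac8, the remaining class I member, was at 0.650, 0.735 and 1.31 RPKM in WT and 1.01, 1.08 and 0.834 in KO, a mean too low for the main test. Its difference had the other sign, at 0.071 (95% interval -0.31 to 0.45, limma adjusted p = 0.932 in a fit without the filter). It was 0.22 without WT replicate 3. All KO values then lay above the 2 WT values left, as in 5.42% of the rows with a mean of at least 1 RPKM. Ffar3, a receptor for short-chain acids, was listed at 0 in all libraries.

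**Figure D5:**
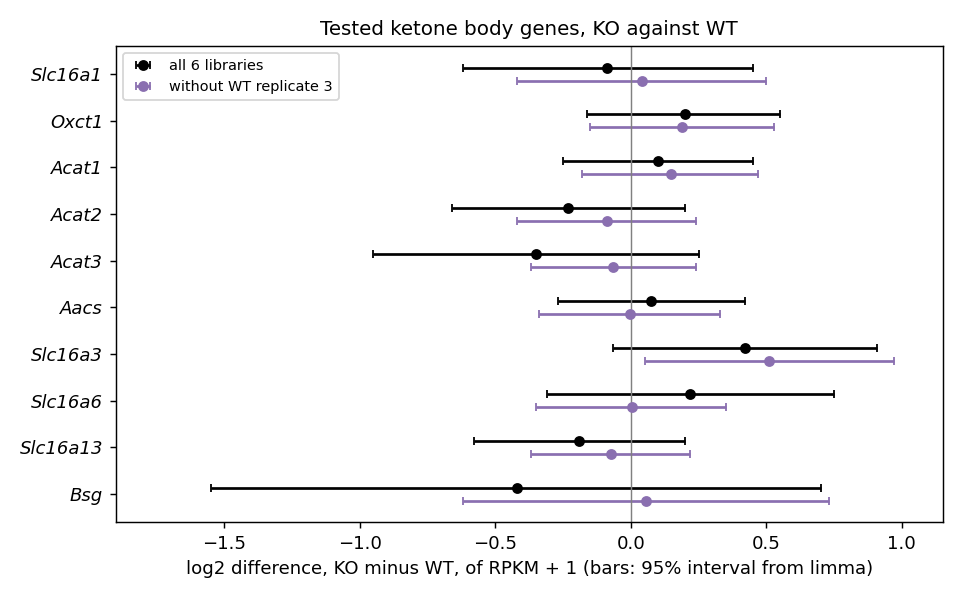
Log2 difference of KO minus WT, on the log2(RPKM + 1) scale, with 95% intervals from limma for 10 tested ketone body enzymes, carriers and partners, using all 6 libraries (black) and without WT replicate 3 (purple). Intervals include 0 for every gene shown with all libraries, and that of Slc16a3 lies at 0.051 to 0.97 without WT replicate 3, where its adjusted p is 1.0.

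The rows whose profile over the 6 libraries was most like that of each member were found by the mean absolute difference of log2(RPKM + 1) values centred on each row's mean. For Slc16a1 these were Pcif1 (0.028) and Osgepl1 (0.035) among 7899 candidates. For Oxct1 they were Mettl17 (0.038) and Tmem175 (0.047), and for Acat1 they were Nudt7 (0.028) and Snapc3 (0.029). For Bdh1 they were D2Wsu81e (0.040) and Psmg1 (0.043). For Bdh2, whose profile is flat apart from WT replicate 3, they were Ptpn1 (0.020) and Inpp5e (0.023). These distances describe 6 libraries that share depth and length effects. The profile shared by Acat1 and Nudt7 was lowest in the first replicates, with Nudt7 at 1.06, 1.22 and 1.29 RPKM in WT and 1.03, 1.71 and 1.34 in KO.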

How the data were processed

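The deposited table holds 1 RPKM column per library, made by the authors with TopHat and Cufflinks on build mm9, per the submitters' processing notes. No version, annotation or strand setting is named there. Of 23119 rows, 25 with a number in place of a name were left out, 492 name several genes, and 7226 are listed at 0 in all libraries. Depth is known only in relative terms. Ratios of RPKM values below 0.05 peaked at depths of 79.8% to 93.6% of WT replicate 2 for 4 libraries, while WT replicate 3 gave no clear peak, so no counting intervals are given.

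The 8302 rows with a mean of at least 1 RPKM were tested with limma (version 3.58.1, R 4.3.3) after a log2(RPKM + 1) transform, a scale that understates changes of low genes. The fit had a variance trend and no block, and p-values were adjusted by Benjamini-Hochberg with a threshold of 0.05. Simulated data with 200 changed rows were used to check the code. Transcript lengths are the longest in GENCODE M21 (99.6% of tested rows matched), an annotation of another build, so no coordinates are given. Python 3.11.15 and matplotlib 3.10.9 drew the figures.

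Named genes are the 5 members, Tfam, the listed enzymes and carriers, the 3 most abundant genes of each other list, and the 2 rows with the most similar profile per member, and some genes that this rule names are not reported here. The members and lists were chosen with earlier results of these data known. Deviations from group means correlated at 0.46, 0.17 and 0.53 between libraries numbered 1, 2 and 3, each above the 0.1 required here. On this evidence alone, with no label behind it, the numbers were used as pairs in the replicate block and in the counts of numbered pairs. The main fit and the permutation tests did not pair the libraries. WT replicate 2 was closer to KO replicate 1 (0.40).

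Alternatives were a pseudocount of 0.1, no filter, a mean of at least 5 RPKM, quantile and median ratio scaling, the replicate block, no trend and leaving out each library. Removal of a length trend (lowess, span 0.3), with and without the block, was added after seeing the data.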

Additional observations from a re-analysis of the deposited data

How the results depend on the processing

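Under none of the alternatives run did Slc16a1, Oxct1 or Acat1 pass the limma threshold. The log2 difference of Slc16a1 (-0.088) turned to 0.083 after quantile normalization, to 0.043 without WT replicate 3 and to 0.047 without KO replicate 2, and the cause was not tested. It kept its direction in the other 12 of 15 alternatives, and Oxct1 and Acat1 kept theirs in 14 of 14. Leaving out 1 library gave -0.25 to 0.047 for Slc16a1, 0.14 to 0.31 for Oxct1, 0.027 to 0.19 for Acat1 and -0.038 to 0.22 for Bdh1. With the replicate block the difference of Slc16a1 was again -0.088 (limma adjusted p = 0.807), and those of Oxct1 (0.20, 0.715) and Acat1 (0.10, 0.782) also stayed on the same side of the threshold. The block changed no call, with 0 rows past the threshold and 324 at an unadjusted p under 0.05. With the length trend removed the differences were -0.17 for Slc16a1, 0.17 for Oxct1 and 0.087 for Acat1, the same with the block. The count of all rows past the threshold was 0 to 2 when 1 library was left out, with 1 without WT replicate 3 (Snord67), 2 without KO replicate 2 (Snord88c and Mir135a-1) and 1 without KO replicate 3 (Snord96a), small RNA genes named after their values were seen. That of the pathway lists was 0 in every alternative run. Their count at an unadjusted p under 0.05 was 0 to 4, against 37 to 598 over all rows. At a mean of at least 5 RPKM only Slc16a1 of the members could be tested. Bdh1 and Bdh2 are limited by their low level and were tested only without a filter.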

Other observations

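Of the ratios between members and their partners, Oxct1 divided by Acat1 overlapped between groups, at 1.08 ± 0.0859 in WT and 1.16 ± 0.0896 in KO (SD, n = 3), as did Slc16a1 divided by Bsg, at 0.111 ± 0.0427 and 0.133 ± 0.0158.

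Of 12 macrophage marker symbols 11 had a row, and the one without, Adgre1, is another name of Emr1, which had one. Cd163 was listed at 0 in all libraries, and the summed level was 17.0 to 33.2 RPKM in WT and 8.62 to 17.8 in KO. The sums overlapped between groups. All 7 markers with a mean of at least 1 RPKM had a lower fitted value in KO and 0 passed, with a median log2 difference of -0.50, or -0.34 without WT replicate 3. Over all 8302 rows 4402 had a lower fitted value, with a median of -0.019. In Cd5l, Marco, C1qb and Csf1r, named after their values were seen, every KO value lay below every WT value, as in 2.36% of all rows. Cd5l was at 1.78, 1.73 and 2.07 RPKM in WT and 0.508, 0.830 and 0.342 in KO (limma, unadjusted p = 0.00119, adjusted p = 0.909). Cd5l, Marco and Csf1r had KO means below 1 RPKM and reached the filter through their WT values, so these counts are a description and lend no support. Megakaryocyte markers summed to 39.8 to 77.4 RPKM in WT and 26.4 to 87.6 in KO, and those of neutrophils to 39.2 to 173 and 28.6 to 74.2.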
